A study of Drosophila melanogaster with 12 samples.

Results

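The gene chinmo (FBgn0086758), a temporal identity gene of Drosophila melanogaster, was followed through 12 libraries of larvae and eye-antennal imaginal discs. The rule named 5 genes, chinmo, br, Eip93F, Imp and lin-28, which specify larval, pupal and adult stages. Rows were taken by FlyBase identifier, and 1 of the 5 members, chinmo, was found among the 10893 genes of the deposited table. The current identifiers of br, Eip93F, Imp and lin-28 are not among its rows. The annotation used here does not link any former identifier to them, and no values are given for these 4 genes. Of the 10893 identifiers 585 matched no current symbol.

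The samples were polyadenylated RNA of the white mutant strain w[11-18], raised at one temperature and dissected alive, and the labels name no other allele or treatment in any group. Whole eye-antennal discs came from larvae at 72, 96 and 120 h after egg laying and from white prepupae (WPP), the stage right after puparium formation. A further 72 h library was made from discs left joined to the mouthparts. At 96 and 120 h the eye part and the antenna part were also sequenced apart, and whole larvae were sampled at 72, 96 and 120 h. Each of the 12 groups held 1 library, and the labels do not say how many animals went into one.

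The libraries had summed values of 939303 to 2210255 FPKM, with 8212 to 9664 genes at 1 FPKM or more. Between 212 and 609 genes were listed at 0 in 11 libraries, and 981 at WPP. No library was a replicate of another, and the read depth is unknown.

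The eye-antennal disc is an epithelial sac that grows through larval life and gives rise to the eye, the antenna and most of the adult head. The protein Chinmo carries a BTB domain, through which such proteins pair, and zinc fingers, and it acts as a transcriptional repressor in the nucleus. In larval epithelia it keeps cells in a juvenile state, and the ecdysone-induced factors encoded by br and Eip93F take over at the pupal and adult stages. In the larval brain its protein forms a declining gradient that sets the birth-order identity of neurons, with the RNA-binding protein Imp raising it and Syncrip (Syp) lowering it. The microRNAs of the let-7 complex repress its messenger RNA through the 3′ untranslated region. In the eye disc it also acts downstream of the JAK/STAT pathway in growth.

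The gene lies on chromosome arm 2L, on the plus strand. The reference annotation, whose build is not the authors', gives it 6 transcripts of 4159 to 12385 nt with 6 to 8 exons each. Their 3′ untranslated regions run from 1688 to 8533 nt, against coding lengths of 1812 to 2520 nt. The only feature that overlaps its span is a transposable element on the same strand, which is not in the table. The deposited table gives 1 value per gene, so changes between these transcripts were not analysed here.

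In the whole disc, chinmo was lower at each later age. It stood at 78.1 FPKM (a fragment count per transcript length and sequencing total) at 72 h, 27.2 at 96 h, 9.16 at 120 h and 6.43 at WPP. The level at 120 h was 8.53-fold below that at 72 h, a pair in which 14.5% of genes were at least 2-fold lower. In the eye part it stood at 6.21 FPKM at 120 h, against 14.7 at 96 h, and in the antenna part at 3.83 FPKM at 120 h, against 33.0 at 96 h. The disc with mouthparts at 72 h held 60.5 FPKM, against 78.1 in the disc without them, less than 2-fold lower, and 1.63% of genes were 2-fold lower or more. In whole larvae the course was different, with 14.8 FPKM at 72 h, 13.2 at 96 h and 26 at 120 h. None of its pairs of ages differed 2-fold, whereas 17.3% of genes were 2-fold lower at 96 h than at 72 h, 25.1% higher at 120 h than at 96 h and 31.6% higher at 120 h than at 72 h. Both libraries of discs at 72 h lay above all 10 others, and the lowest 4 were discs or disc parts at 120 h or WPP. In bulk tissue, fewer cells that express a gene and less of its RNA per cell cannot be told apart.

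**Figure D1:**
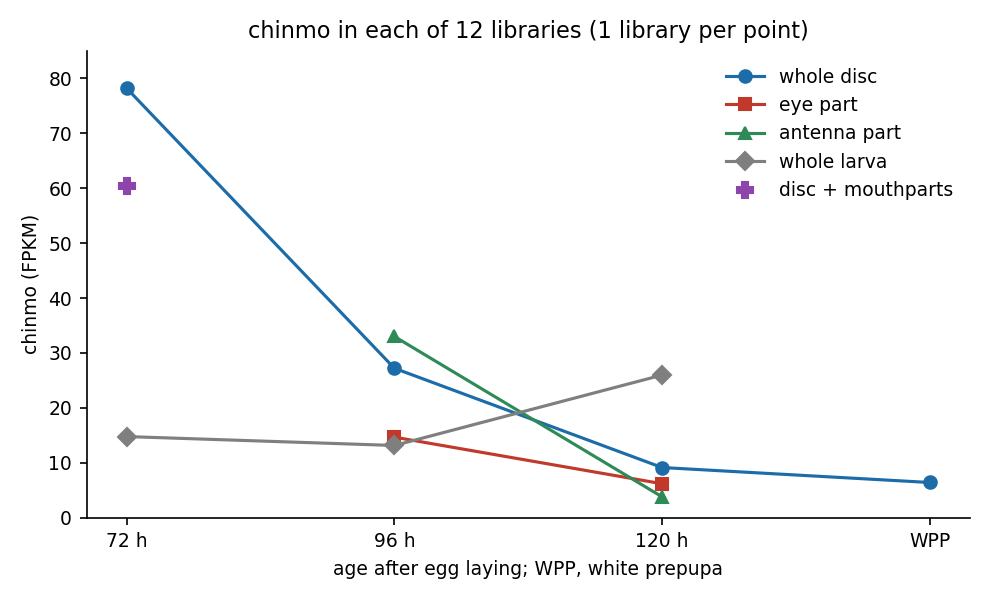
The vertical axis gives the level of chinmo in FPKM and the horizontal axis the age, with 1 library per point and no error bars because no group had a replicate. The whole disc goes from 78.1 at 72 h to 6.43 at WPP, while the whole larva stands at 14.8, 13.2 and 26 at 72, 96 and 120 h.

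Among the genes of its own library chinmo ranked lower at later ages in disc tissue and not in the larva. Its FPKM exceeded that of 85.4% of the genes in the whole disc at 72 h, 65.9% at 96 h, 40.5% at 120 h and 39.2% at WPP. In the antenna part it exceeded 33.8% at 120 h, against 70.4% at 96 h. In the whole larva the share was 62.4% at 72 h, 62.6% at 96 h and 69.3% at 120 h.

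With single libraries, the distance between separately made libraries of like tissue was the available measure of spread. At 96 h the whole disc, at 27.2 FPKM, was set against 21.5, the weighted mean of the eye part (63%) and the antenna part, a gap of 0.33 in log2(FPKM + 1). At 120 h the whole disc stood at 9.16 FPKM, against a weighted mean of 5.30, a gap of 0.69. The whole disc at 120 h thus lay above both of its parts, and 5.92% of 6658 genes deviated further than chinmo at that age. In the order of the 12 levels, 2 gaps between neighbours exceeded 0.69. They lay between the disc with mouthparts at 72 h and the antenna part at 96 h, at 0.85, and between the larva at 120 h and the larva at 72 h, at 0.77. The other neighbours differed by less than the whole disc did from its own parts at 120 h. Gaps of 0.36, 0.45, 0.48 and 0.58 among them were larger than the 0.33 at 96 h. The weights were fitted to bring the whole disc close to its parts, so both gaps may be too small. The steps of the whole disc, at -1.49 for 96 h against 72 h and -1.47 for 120 h against 96 h, were larger than 0.69, and the step to WPP, at -0.45, was not.

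The step from 96 to 120 h, as larval life ends, could be followed in the disc, its 2 parts and the whole larva. The level was lower at 120 h in 3 of 3 matched pairs of disc tissue, with differences in log2(FPKM + 1) of -1.12 in the eye part, -2.82 in the antenna part and -1.47 in the whole disc. In the whole larva it was higher at 120 h, at 26 FPKM, against 13.2 at 96 h (0.93, with a median of 0.61 over all genes). Limma, fitted to the disc tissues over 9081 genes with terms for tissue and age, gave chinmo an estimate of -1.80 (SE 0.38, unadjusted p = 0.00894, Benjamini-Hochberg adjusted p = 0.124). The estimate missed the threshold of 0.05, and 2.11% of all genes passed it (1.17% lower and 0.947% higher at 120 h). In size it ranked 324 of 9081. The pairs agreed in direction and differed in size. The whole disc is made up of both parts, so its pair adds no independent tissue. The fit takes it as a separate tissue, so its error and p may be too small. Without the antenna part at 96 h the estimate was -1.30 and the limma adjusted p = 0.0417, and without the antenna part at 120 h it was -1.30 with adjusted p = 0.0319. With each other library left out, and over the 7 processing alternatives, the adjusted p ran from 0.101 to 0.256.

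As single pairs, these steps were read by size without a test: a pair counted where FPKM + 1 differed 2-fold or more and the higher library held 5 FPKM or more. By this rule chinmo was lower at 120 h in the whole disc, where 5.11% of 7538 genes were, in the eye part, where 6.27% were, and in the antenna part, where 9.82% were. Chinmo was also lower by this rule in the whole disc at 96 h against 72 h, as were 11.1% of 7842 genes. It was not past the rule at WPP against 120 h, a step at which 9.34% of genes were lower. In the antenna part 268 of 7493 genes had a larger drop than chinmo, and in the whole disc from 96 to 120 h 232 of 7538 did. The whole disc at 96 h is shared by both of its steps, so these 2 differences are not independent.

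**Figure D2:**
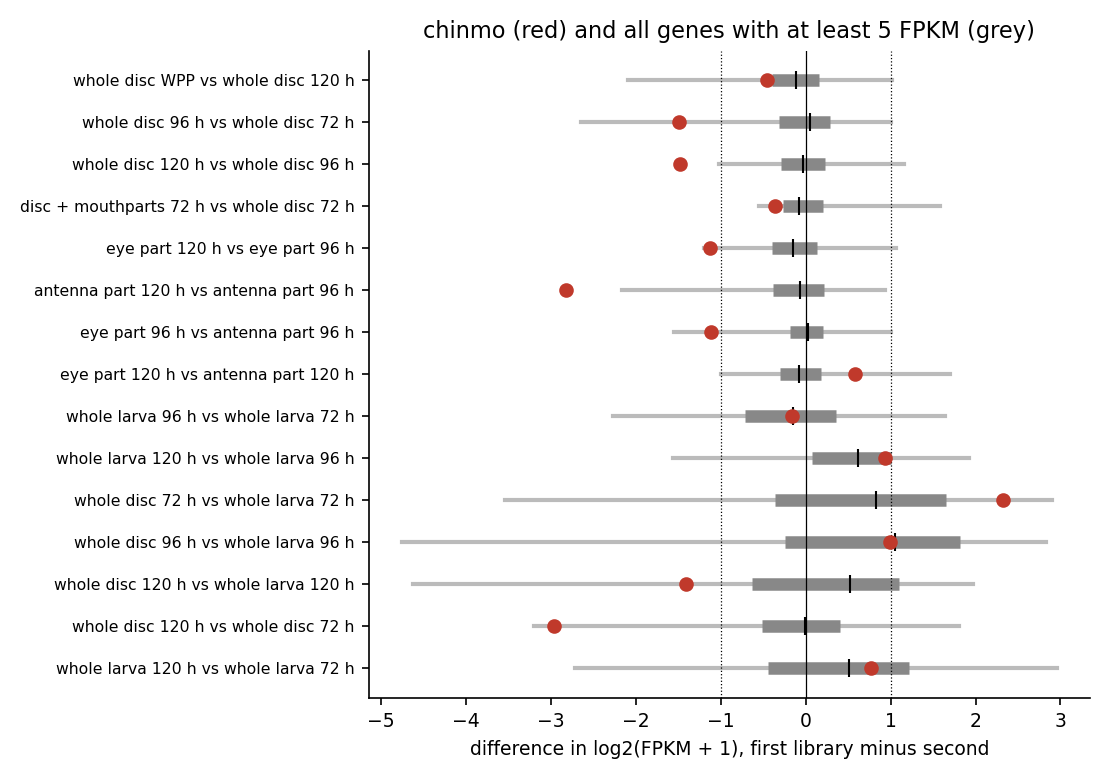
Each row is a pair of libraries and the horizontal axis is the difference in log2(FPKM + 1), first library minus second. Red points are chinmo, thick and thin grey bars span the interquartile and the 5th to 95th percentile ranges of the genes with at least 5 FPKM, and ticks mark the median. Chinmo lies left of the thin bar for the whole disc at 120 h against 96 h (-1.47) and for the antenna part (-2.82).

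Between the eye part and the antenna part, chinmo differed past 2-fold at 96 h and not at 120 h. At 96 h it was lower in the eye part, at 14.7 FPKM, against 33.0 in the antenna part (-1.12). At 120 h it stood at 6.21 FPKM in the eye part, against 3.83 in the antenna part (0.58), a gap under the 0.69 between the whole disc and its parts. The limma estimate over both ages was -0.27 (SE 0.47, adjusted p = 0.893), and 3.14% of 9081 genes passed (1.75% higher and 1.39% lower in the eye part). By the 2-fold rule chinmo was lower in the eye part at 96 h, as were 7.53% of 7574 genes, and it was not past the rule at 120 h, when 7.33% of 7423 genes were higher. The labels of the parts held for their markers. Those of the retina (gl, eya, so, ey, ato, elav) summed to 633 FPKM in the eye part, against 102 in the antenna part at 96 h, and those of the antenna (Dll, ss, disco, Lim1) to 18.5 and 230.5.

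Whole discs were compared with whole larvae of the same age to ask where chinmo stood in the rest of the animal. The disc held more at 72 h, with 78.1 FPKM against 14.8 in the larva (2.33 in log2), and at 96 h, with 27.2 against 13.2 (0.99). At 120 h it held less, with 9.16 FPKM in the disc against 26 in the larva (-1.41). At 96 h the difference was under the median of all genes, 1.05, and with median-ratio scaling it was -0.21, so the order of disc and larva at that age depends on the scaling. At 72 h the disc stayed above the larva, and at 120 h below it, under each alternative run. By the 2-fold rule chinmo was higher in the disc at 72 h, as were 45% of genes, not past it at 96 h, when 51.7% were higher, and lower at 120 h, as were 21.7%. The limma estimate over the 3 ages was 0.64 (SE 0.82, adjusted p = 0.555), and the median over all 9993 genes was 0.62, so that chinmo was placed near the middle of all genes. Of these genes 50.1% passed. With median-ratio scaling of the libraries the estimate was -0.25 and the median of all genes -0.21. In the same fit, the estimate for chinmo was -1.09 (SE 1.01, adjusted p = 0.56) at 120 h against 72 h, where 4.29% of genes passed (2.88% lower). It was -0.82 (SE 1.01, adjusted p = 0.924) at 96 h against 72 h, where 1.38% passed (1.27% lower). Disc and larva moved in opposite directions, by -2.96 and 0.77 from 72 to 120 h, and that difference enters the error of the fit. Without the larva at 72 h, with 72 h represented by the disc alone, the estimate for 120 h against 72 h was -2.36 (limma adjusted p = 0.0232). It was 0.17 without the disc at 72 h and 0.44 without the disc at 120 h. Without the larva at 120 h the estimate for disc against larva was 1.66 (adjusted p = 0.0496), and without the disc or the larva at 72 h it was -0.21.

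Summed markers of muscle and of the ring gland were, like chinmo, lower at each later age in the whole disc. Those of fat body were lower only up to 120 h. The summed level of 7 muscle genes, such as Mlc1 and Act57B, was 6198 FPKM at 72 h, 1700.5 at 96 h, 156 at 120 h and 26.5 at WPP in the whole disc. At 96 h it was 467 FPKM in the eye part, against 4252 in the antenna part, and at 120 h 31.2 in the eye part, against 182 in the antenna part. In the same libraries chinmo stood at 14.7 FPKM in the eye part, against 33.0 in the antenna part at 96 h, and at 6.21 against 3.83 at 120 h. The disc with mouthparts held 11300 FPKM of the muscle genes and 60.5 of chinmo, against 6198 and 78.1 in the disc without them. In the whole larva the muscle sum was 22103, 14050 and 2501 FPKM at 72, 96 and 120 h, with chinmo at 14.8, 13.2 and 26. Over the 12 libraries, Pearson's r of log2(FPKM + 1) between chinmo and the 7 muscle genes ran from 0.531 (sls) to 0.761 (Mlc2). A list of 6 ring gland genes, of the endocrine organ that makes ecdysone and juvenile hormone, summed to 1126, 980, 406 and 226 FPKM in the whole disc at 72, 96, 120 h and WPP. It summed to 377 FPKM in the eye part, against 1220 in the antenna part at 96 h, and to 282.5 and 430 at 120 h. In the whole larva the ring gland sum was 25.3, 52.4 and 81.6 FPKM at 72, 96 and 120 h. Without scaling, limma called all 6 ring gland genes higher in the disc than in the larva, as were 35.9% of all genes. Fat body genes (6) summed to 459, 162, 46.7 and 488 FPKM in the whole disc at 72, 96, 120 h and WPP. At 120 h they summed to 90.1 FPKM in the eye part, against 453 at 96 h, and to 51.1 in the antenna part, against 333 at 96 h. At 120 h against 96 h limma called 4 of the 6 fat body genes lower, with a median of -2.66. It called 4 of the 7 muscle genes lower (median -3.38) and 1 of the 6 ring gland genes (median -1.02). Over all genes 1.17% were called lower, with a median of -0.08. The part of muscle, ring gland and fat body RNA in the lower level of chinmo at later ages was not tested.

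The larval brain is a known site of chinmo expression. A sum over 10 neuroblast and brain genes was 32.1 FPKM at 72 h, 58.6 at 96 h, 78.4 at 120 h and 122 at WPP in the whole disc. It was 27.8, 45.4 and 98.2 FPKM in the whole larva at 72, 96 and 120 h. In the antenna part the sum was 31.4 FPKM at 120 h, against 30.4 at 96 h, and in the eye part 122 at 120 h, against 64.6 at 96 h. In the whole disc the neuroblast gene dpn was the largest member at 72 and 96 h, and the neuronal gene nSyb at 120 h and WPP. At 72, 96, 120 h and WPP dpn stood at 9.04, 17.3, 14.5 and 13.7 FPKM, and nSyb at 7.36, 14.6, 25.1 and 39.3. The genes brp and pros stood at 22.8 and 26.6 FPKM at WPP, against 0.508 and 0.733 at 72 h. At 120 h nSyb stood at 52.3 FPKM in the eye part, against 0.575 in the antenna part. The sum does not tell RNA of the brain from RNA of the disc's own neurons, and their parts were not tested. The neuroblast gene mira stood at 3.71, 2.45, 2.55 and 2.43 FPKM in the whole disc, without a rise. Of the other neuroblast genes listed, ase stood at 0.538, 1.17, 1.53 and 2.32 FPKM and insc at 2.55, 3.30, 3.48 and 4.57. Both were higher at each later age. In the larva the neural sum and chinmo were both highest at 120 h, and the part of one in the other was not tested. The neuroblast factor gene wor stood at 0.427, 0.168, 0.24 and 0.779 FPKM in the whole disc at 72, 96, 120 h and WPP. Hemocyte genes (6) summed to 13.3 to 85.5 FPKM over the 9 disc libraries. None of the 8 male germ line genes listed was matched, and they were not analysed here.

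**Figure D3:**
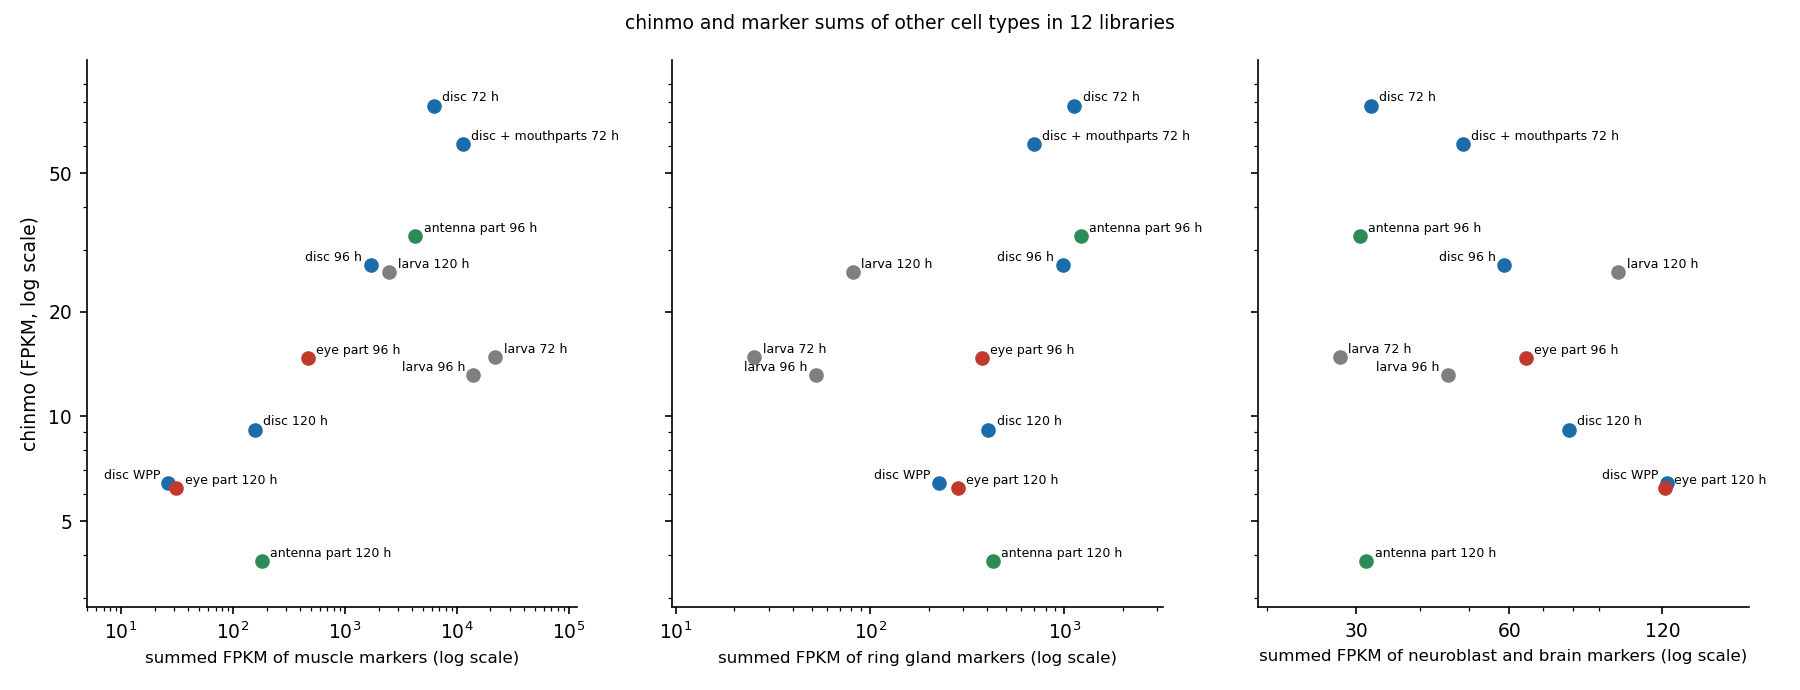
The vertical axis is chinmo in FPKM and the horizontal axes are the summed FPKM of marker lists, all on log scales, with 1 point per library (blue whole disc and disc with mouthparts, red eye part, green antenna part, grey whole larva). The whole disc holds 6198 FPKM of muscle genes with 78.1 of chinmo at 72 h, and 26.5 with 6.43 at WPP. The antenna part at 120 h holds 182 FPKM of muscle genes with 3.83 of chinmo, and the whole larva at 72 h 22103 with 14.8.

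The regulators of chinmo were followed beside it. Syp, whose protein lowers Chinmo in brain neurons, was higher at 96 and 120 h than at 72 h in the whole disc, with 136 FPKM at 72 h, 336 at 96 h, 528 at 120 h and 476 at WPP. In the whole larva it stood at 48.7, 90.8 and 265 FPKM at 72, 96 and 120 h. Syp was thus higher at 120 h than at 72 h in both tissues, and limma gave 2.18 (SE 0.48, adjusted p = 0.0362) for that contrast, which was no longer past the threshold with 4 of the 7 alternatives (adjusted p up to 0.11) and with 5 of 6 left-out libraries (up to 0.283). For 120 h against 96 h over the disc libraries the estimate for Syp was 0.51 (SE 0.17, adjusted p = 0.224). A gene on the opposite strand, CG31195, overlaps Syp and is in the table, so its value carries that uncertainty.

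The let-7 complex is a single primary transcript that carries the microRNAs mir-100, let-7 and mir-125. Its row, lncRNA:let7C, was added to the genes followed here after the data had been seen. It was near 0 in the whole disc at 72 h (0.00769 FPKM) and 96 h (0.18), and reached 2.4 at 120 h and 3.96 at WPP. In the eye part it stood at 2.97 FPKM at 120 h, against 0.345 at 96 h, and in the antenna part at 1.36 FPKM at 120 h, against 0.0654 at 96 h. All 3 pairs were higher at 120 h, with a limma estimate of 1.41 (SE 0.26, adjusted p = 0.0783). In whole larvae it was listed at 0 at 72 h and stood at 0.483 FPKM at 120 h. The row of the precursor mir-let7, of 78 nt, was listed at 0 in 11 libraries and at 71.4 FPKM in the eye part at 120 h. In the whole disc at 72, 96, 120 h and WPP, mir-100 stood at 0, 22.8, 16.4 and 0 FPKM and mir-125 at 0, 25.1, 40.7 and 74.0 FPKM. The 3 precursor rows, of 78 to 110 nt, did not share one course. They overlap lncRNA:let7C on the same strand and could share reads with it. At such lengths a few reads give a large FPKM, so no course is read from them.

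The lists of genes given below were chosen with earlier results of these data known. Over the list of 16 temporal factors, 9 had a row and 6 entered the fit of 120 h against 96 h, where limma called 0 of them (3 with an unadjusted p under 0.05, as had 18.2% of all genes). The 6 were chinmo itself, Syp, svp, grh and the short precursor rows mir-100 and mir-125, from which no course is read. The median estimate of the 6 was 0.41, against -0.08 over all genes. For 120 h against 72 h 1 of 7 was called, Syp, with 1.41% of all genes called higher. The transcription factor gene grh, which acts in epithelia and neuroblasts, stood at 46.6, 77.4, 107 and 110 FPKM in the whole disc at 72, 96, 120 h and WPP. The orphan nuclear receptor gene svp was the 1 of 6 called between the parts, where 1.75% of all genes were called higher in the eye part. Its limma estimate was 2.92, higher in the eye part (SE 0.21, adjusted p = 0.00674). Without the eye part at 96 h or at 120 h this call was lost, like almost every call in discs and parts. The neuroblast factor cas stayed under 1 FPKM in 8 of 9 disc libraries, the exception being the disc with mouthparts at 3.19.

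Of 18 genes listed under BTB zinc finger factors, 13 had a row and 12 were tested for 120 h against 96 h. The list is wider than the family of chinmo, and its members bab1, bab2 and psq are also on the Psq domain list below. Of the 12 tested 1 fell, fru, and 1 rose, bab2, where 1.17% of all genes fell and 0.947% rose. In limma 6 of the 12 had an unadjusted p under 0.05, as had 18.2% of all genes. The gene fru, which specifies sex-specific neurons, was also lower at each later age. It stood at 137, 82.9, 27.9 and 4.59 FPKM in the whole disc at 72, 96, 120 h and WPP. At 120 h it stood at 9.23 FPKM in the eye part, against 64 at 96 h, and at 16 in the antenna part, against 104 at 96 h. Its limma estimate was -2.28 (SE 0.27, adjusted p = 0.0364), and its 3 pairs lay closer together than those of chinmo. With 3 of the 7 alternatives it missed the threshold (adjusted p up to 0.0624), and likewise without any one of the 4 libraries of eye or antenna parts (adjusted p 0.0636 to 0.184). The gene bab2, which patterns the distal antenna and leg, rose by 1.16 (SE 0.12, adjusted p = 0.0222) and was lower in the eye part than in the antenna part (-1.63, SE 0.15, adjusted p = 0.0102). Both calls of bab2 were lost without the eye part at 96 h or at 120 h, like almost every call over all genes in discs and parts. The estimates of ken, a repressor, and ttk, which blocks neuronal fate, were -1.01 and 0.62 (limma adjusted p = 0.0938 and 0.092). The median of the 12 was -0.24, against -0.08 over all genes.

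Ecdysone is the steroid that times moults and metamorphosis, through a nuclear receptor and a cascade of early target genes. Of 18 genes listed 14 had a row, and limma called 3 of the 13 tested higher and 0 lower at 120 h against 96 h, with 10 of 13 at an unadjusted p under 0.05. Over all genes 0.947% were called higher, 1.17% lower and 18.2% had an unadjusted p under 0.05. Hr3, an ecdysone-induced nuclear receptor gene, stood at 42.3 FPKM in the eye part at 120 h, against 0.276 at 96 h, and its estimate was 4.88 (SE 0.23, adjusted p = 0.00308). Blimp-1, which encodes a repressor of ftz-f1, rose by 4.81 (SE 0.23, adjusted p = 0.00308), and the nuclear receptor gene Eip78C by 2.83 (SE 0.27, adjusted p = 0.0182). Without the eye part at 96 h or at 120 h these calls missed the threshold, as did almost every call over all genes. The estimates of Hr3, Blimp-1 and Eip78C were then 4.78, 4.72 and 2.97. In the whole disc Blimp-1 stood at 0.0563, 1.31, 42.7 and 133 FPKM at 72, 96, 120 h and WPP. In the disc libraries at 72 and 96 h, parts included, Hr3, Blimp-1 and Eip78C stood at 3.21 FPKM or less. At 96 h this follows in part from their choice as genes called higher at 120 h. For 120 h against 72 h over disc and larva limma called 3 of 14 higher, Blimp-1 (4.24, SE 0.65, adjusted p = 0.00729), Eip78C (2.90, SE 0.55, adjusted p = 0.0193) and Eip75B (1.98, SE 0.45, adjusted p = 0.0445), a nuclear receptor gene. Blimp-1 missed the threshold with 3 of the 7 alternatives and 2 of 6 left-out libraries (adjusted p up to 0.182), Eip78C with 2 and 3 (up to 0.254) and Eip75B with 5 and 4 (up to 0.383). The nuclear receptor gene ftz-f1, which acts in the mid-prepupal response, and the receptor gene EcR had estimates of -2.39 and -1.04 (limma adjusted p = 0.225 and 0.0646). In the whole disc ftz-f1 stood at 23.7, 11.5, 6.43 and 0.719 FPKM at 72, 96, 120 h and WPP. The list's median was 0.41, against -0.08 over all genes. Genes on the opposite strand overlap EcR and Eip75B, as they do brat, and could share reads with them. Genes on the same strand overlap Hr3 (CG12912) and Eip78C (CG43218), as 1 does svp (CG17738), and could likewise share reads.

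**Figure D4:**
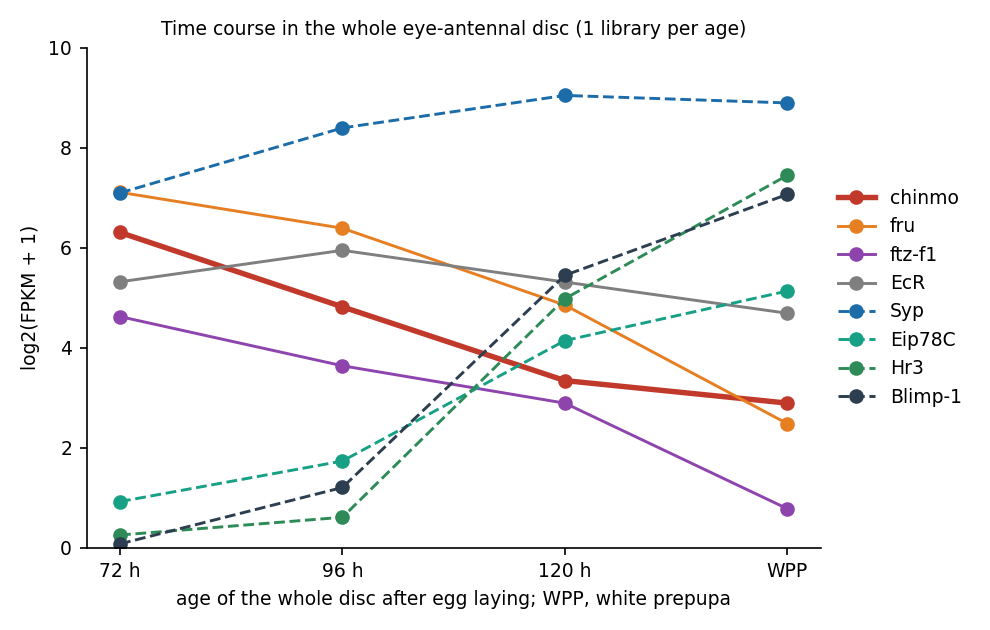
The vertical axis is log2(FPKM + 1) in the whole disc and the horizontal axis the age, with 1 library per point. Solid lines are chinmo, fru, ftz-f1 and EcR and dashed lines Syp, Eip78C, Hr3 and Blimp-1. Chinmo runs from 78.1 FPKM at 72 h to 6.43 at WPP while Blimp-1 runs from 0.0563 to 133.

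**Figure D5:**
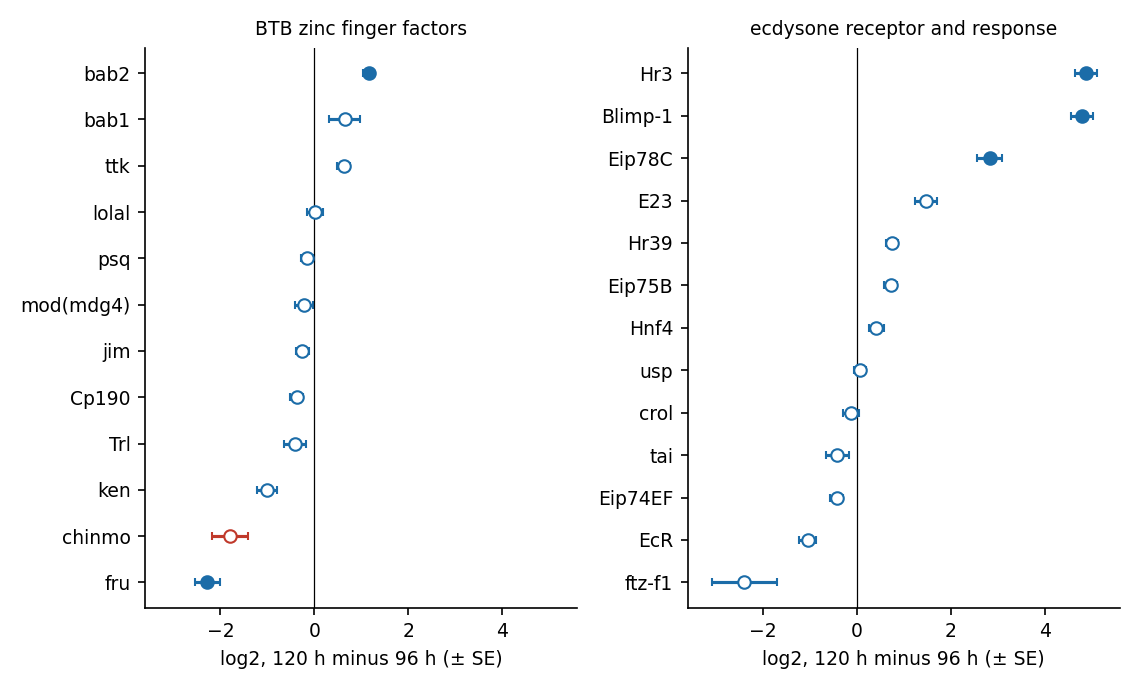
The horizontal axis is the limma estimate of 120 h minus 96 h in log2(FPKM + 1) over the 6 libraries of discs and parts, with bars of 1 SE, for the BTB zinc finger list and the ecdysone list. Filled points passed an adjusted p of 0.05 and the open red point is chinmo, at -1.80. The called genes are fru and bab2 in the first list and Hr3, Blimp-1 and Eip78C in the second.

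Juvenile hormone keeps larval tissues from metamorphosis. Of 11 genes listed for its synthesis, binding and response, 9 were tested for 120 h against 96 h. Among them jhamt, which encodes the last enzyme of its synthesis, was the 1 called lower, as were 1.17% of all genes. Its limma estimate was -2.37 (SE 0.21, adjusted p = 0.0159). This call was lost without the eye part at 96 h or at 120 h, like almost every call in discs and parts. In the whole disc jhamt stood at 146, 63.4, 7.5 and 0.664 FPKM at 72, 96, 120 h and WPP. It belongs to the ring gland list too, whose sum is given above, and the part of ring gland RNA in it was not tested. The hormone-binding protein gene Jhbp1 was lower at 120 h against 72 h over disc and larva (-3.66, SE 0.44, adjusted p = 0.00208). This call was lost with median-ratio and quantile scaling (adjusted p = 0.0937 and 0.114) and without the disc or the larva at 120 h (adjusted p = 0.0995 and 0.135). At 96 h against 72 h Jhbp1 was also lower (-3.17, SE 0.44, adjusted p = 0.00775), a call lost with the same scalings (adjusted p = 0.278 and 0.432) and without the disc at 96 h, the disc at 120 h or the larva at 120 h (adjusted p 0.123 to 0.155). The list's median for 120 h against 96 h was -0.60. The hydrolase genes Jheh3 and Jheh1, whose products break the hormone down, and the receptor gene gce had estimates of -1.28, -1.19 and -0.78 for 120 h against 96 h (limma adjusted p = 0.098, 0.0836 and 0.338).

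Of 18 RNA regulators listed for work with Imp and lin-28, 13 were tested, and limma called 0 of them for 120 h against 96 h (2 with an unadjusted p under 0.05). Their median was -0.004, against -0.08 over all genes. All 13 tested were called higher in the disc than in the larva, a contrast in which 35.9% of all genes were called higher. With median-ratio scaling 3 of the 13 were called higher, and over all genes 1284 were higher and 2111 lower, against 3588 and 1416 without scaling. The gene brat, which encodes a repressor of translation, stood at 79.3, 106, 133 and 113 FPKM in the whole disc at 72, 96, 120 h and WPP. The gene wech, of the same protein family, was higher in the eye part by 1.08 (SE 0.17, adjusted p = 0.0454), which missed the threshold with 3 of the 7 alternatives and without any one of the 4 libraries of eye or antenna parts (adjusted p up to 0.327). The Psq domain is a DNA-binding domain that Eip93F also carries. Of 8 genes listed for it, 5 were tested for 120 h against 96 h, with a median of 0.10. Limma called bab2 alone, as higher, where 0.947% of all genes were called higher. The antennal and eye factor gene danr was higher at 120 h than at 72 h over disc and larva by 1.87 (SE 0.44, adjusted p = 0.0465), a call lost with 5 of the 7 alternatives and with 5 of 6 left-out libraries (adjusted p up to 0.333). In the disc against the larva, limma called 9 of 12 genes on the BTB list higher, among them fru (1.31, SE 0.38, adjusted p = 0.0185). It also called 3 of 5 Psq factors higher. With median-ratio scaling 5 of 13 genes on the BTB list were called higher, fru no longer among them (adjusted p = 0.241), and 3 of 5 Psq factors. Without scaling, in that contrast 14.2% of all genes were called lower.

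The genes whose pattern over the 12 libraries was most like that of chinmo were sought by Pearson's r of log2(FPKM + 1), among 6949 genes with at least 5 FPKM somewhere and a transcript of at least 1000 nt. The nearest were CG1136 (r = 0.935), Chd64 (0.934), CG1648 (0.928), CLIP-190 (0.922) and yellow-c (0.912). Chd64 encodes a calponin-like protein that binds the juvenile hormone response element and belongs to the list above, and CLIP-190 encodes a microtubule plus-end protein. Chd64 stood at 438, 254, 195 and 138 FPKM in the whole disc at 72, 96, 120 h and WPP. At 96 h CLIP-190 stood at 24.1 FPKM in the eye part, against 98.6 in the antenna part, and chinmo at 14.7 and 33.0 in the same order. Over the 9 disc libraries alone, none of these 5 was among the nearest 5, which were Pisd (r = 0.986), Abca3 (0.981), Prx2 (0.98), dia (0.98) and Tg (0.977). The points share tissues and ages, so these values only describe likeness. The authors' deposited table assigned chinmo to its cluster 7, with 1753 genes (16.1%), and 3 of the nearest 5 and 70 of the nearest 100 genes were in that cluster.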

How the data were processed

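Polyadenylated RNA of 12 samples was sequenced, and the deposited table gives 1 value per gene and library with a cluster number that the authors assigned. The authors made the values with TopHat and Cufflinks on build dm3, per the submitters' processing notes, with no versions given. They were read as FPKM as deposited, because no header names the unit. Read depth is therefore unknown, no sequences were read, and strand was not stated. Identifiers were matched to the BDGP6.54 annotation (10308 of 10893). Values were tested with limma 3.58.1 (R 4.3.3) on log2(FPKM + 1), over genes with at least 1 FPKM in 2 libraries, in 2 fits of 6 libraries each (tissue plus age in each: disc, eye part and antenna part at 96 and 120 h; disc and larva at 72, 96 and 120 h), with Benjamini-Hochberg adjustment at 0.05. With 1 library a group, the error is the deviation between matched pairs, which holds any interaction, and it may be technical. In the first fit the whole disc contains the eye and antenna parts, so the error may be too small. Single pairs carry no test. On simulated data the first fit recovered 100% of genes changed by 2 in log2, with 10 false calls. Every simulated gene had the median spread and no interaction of tissue and age. The residual SD of chinmo in that fit was 0.632, so the simulation does not give the power for chinmo. Genes and lists were chosen with earlier results of these data known. Named genes were the members found, the 5 most alike and list members past a test. Up to 4 per list with the largest 120 h minus 96 h estimate were also named. Others (lncRNA:let7C, grh, cas, wor, mira, dpn, ase, insc, nSyb, brp, pros, brat, mir-let7, mir-100, mir-125) were chosen after their values were seen. Alternatives were the pseudocount, the filter, the scaling, the moderation and each library left out.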

Additional observations from a re-analysis of the deposited data

Results flagged for a closer look

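Differences of chinmo ran in opposite directions between groups in 3 cases, all from single libraries, and the difference was not tested in any of them. In the eye part against the antenna part, log2(FPKM + 1) differed by -1.12 at 96 h and by 0.58 at 120 h, the second a gap under the 0.69 between the whole disc and its parts. At 120 h against 72 h it differed by -2.96 in the whole disc and by 0.77 in the whole larva, where the median of all genes was 0.51. At 120 h against 96 h it differed by -1.47 in the whole disc and by 0.93 in the whole larva, where the median of all genes was 0.61. The last 2 cases share the libraries at 120 h.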

How the results depend on the processing

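No paired analysis was possible because every group held a single library with the same number, so a replicate block would have 1 level; the fits match libraries by tissue and age instead. Over 7 alternatives the chinmo estimate for 120 h against 96 h ran from -1.95 to -1.37, and leaving out each library in turn from -2.14 to -1.30. The left-out libraries gave -1.03 to 0.49 for eye against antenna part, -0.21 to 1.66 for disc against larva, -2.63 to 0.44 for 120 h against 72 h and -2.09 to 0.44 for 96 h against 72 h. For 120 h against 72 h chinmo was at 0.17 without the disc at 72 h and 0.44 without the disc at 120 h, and for 96 h against 72 h at 0.44 without the disc at 72 h. It was at -0.21 in disc against larva without the disc or the larva at 72 h, and in eye against antenna part at 0.24 without the eye part at 96 h and 0.49 without the antenna part at 96 h. Median-ratio scaling turned disc against larva to -0.25, and the pair at 96 h to -0.21.

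Counts of genes called by limma moved more. For 120 h against 96 h, 192 became 125 with a pseudocount of 5, 116 with median-ratio scaling and 95 without trended, robust moderation. For 120 h against 72 h, 429 became 176, 7 with median-ratio and 0 with quantile scaling (2393 at an unadjusted p under 0.05). For 96 h against 72 h, 138 became 48 with a pseudocount of 5, 81 without the filter, and 0 with median-ratio or quantile scaling (1021 and 1006 at an unadjusted p under 0.05). With 1 library left out, the counts ran from 1 to 344 for 120 h against 96 h, 1 to 413 for eye against antenna part, 1345 to 4814 for disc against larva, 0 to 1177 for 120 h against 72 h and 0 to 596 for 96 h against 72 h. The calls of Hr3, Blimp-1, Eip78C, jhamt, bab2 and svp in discs and parts ended without the eye part at 96 h or at 120 h. Those fits gave the lowest counts for discs and parts, and almost every call over all genes ended in them. The causes were not tested. The lack of replicates and unknown depth limit every value.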
